A study of Mus musculus with 10 samples.

Results

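Transcripts of 10 immediate-early genes were examined in 10 mouse lung tumours: the zinc-finger factors Egr1, Egr2 and Egr3, the nuclear receptors Nr4a1, Nr4a2 and Nr4a3, the immediate early response genes Ier2, Ier3 and Ier5, and the stress-induced factor Atf3. They were taken by symbol from a count table of 39017 genes, and all 10 passed the filter on low counts that left 16216 genes for testing. The tumours were 5 from KP mice, the control group, and 5 from KPG1 mice, in which Slc2a1, which encodes the glucose transporter Glut1, was floxed on both chromosomes. All mice were C57BL/6 males, and tumours were started by an adenovirus given through the trachea that expressed Cre from the SPC promoter, so that recombination began in cells that make surfactant protein C. Tumours were collected 18 weeks and 6 days later and dissociated, and cells carrying the leukocyte marker CD45 were removed with magnetic beads before RNA was extracted. One label gives the KP tumours as heterozygous for the floxed Slc2a1 allele and another as wild type, so KP means only the control group here. The engineered alleles that start the tumours, which both groups carry, are not reported here. The labels do not say whether each tumour came from its own mouse, so p-values measure the spread between these samples, which may in part be technical.

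Each sample title also carries a number. It was 10, 1, 4, 5 and 9 for KPG1 tumours 1 to 5, and 11, 12, 15, 16 and 6 for KP tumours 1 to 5. The sources do not say what the number stands for, and whether it follows the order of handling was not tested. The column headers of the counts also carry an S index that rises with the number, and its meaning is not given. Only KP tumour 5, numbered 6, lies among the KPG1 numbers. The numbers leave gaps of the same size between 1 and 4, 6 and 9, and 12 and 15, so the labels alone single out none of them. The gap between 6 and 9, where levels of several of the 10 genes changed, is used below. Under it lie 3 KPG1 tumours and 1 KP tumour, and above it 2 KPG1 and 4 KP tumours. Genotype and number can thus be partly separated. Below, a tumour is named by its title number where the order matters.

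Immediate-early genes are transcribed within minutes of a stimulus from factors already present in the cell, mainly serum response factor with its ternary complex partners, and CREB. Their transcripts decay quickly, and growth factors, mechanical stress, cAMP and tissue dissociation are all known to raise them. Egr1, Egr2 and Egr3 bind GC-rich sites and carry the early response into later gene expression, and all 3 are known targets of serum response factor. The Nr4a receptors need no known ligand, so their activity is set largely by how much is made.

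Promoter sequence was printed for 3 genes whose levels differed along the title number, Egr2, Nr4a1 and Atf3, and for Nr4a2, whose level did not follow theirs. The sequences are RefSeq windows of 250 bases that end at an annotated start, on build GRCm38.p6, 5′ to 3′ on the gene's strand. RefSeq windows were matched for 7 of the 10 genes, with none for Egr1, Egr3 and Ier2. Capitals mark a CArG box, the core of the serum response element, in Egr2. In Nr4a1 they mark 4 copies of the CRE-like letters TGCGTCA and, on the opposite strand, 1 EGR site (GCGGGGGCG). In Atf3 they mark the ATF/CRE letters TTACGTCA.
Egr2, chr10:67537619-67537868, plus strand: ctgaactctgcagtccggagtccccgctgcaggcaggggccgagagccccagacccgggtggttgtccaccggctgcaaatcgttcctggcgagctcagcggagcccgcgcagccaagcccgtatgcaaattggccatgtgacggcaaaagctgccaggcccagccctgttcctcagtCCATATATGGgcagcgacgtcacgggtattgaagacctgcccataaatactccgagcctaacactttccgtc
Nr4a1, chr15:101266596-101266845, plus strand: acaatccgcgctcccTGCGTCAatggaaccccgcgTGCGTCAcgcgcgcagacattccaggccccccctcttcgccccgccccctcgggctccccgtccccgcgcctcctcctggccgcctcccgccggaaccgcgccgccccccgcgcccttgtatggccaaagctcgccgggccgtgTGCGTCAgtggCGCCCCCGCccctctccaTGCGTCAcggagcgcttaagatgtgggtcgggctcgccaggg
Atf3, chr1:191183334-191183583, minus strand: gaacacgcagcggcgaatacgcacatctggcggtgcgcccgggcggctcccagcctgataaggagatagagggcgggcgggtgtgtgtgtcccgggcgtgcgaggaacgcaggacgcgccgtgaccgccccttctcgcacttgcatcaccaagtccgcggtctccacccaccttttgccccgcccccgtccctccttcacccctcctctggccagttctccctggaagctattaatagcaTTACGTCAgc
Nr4a2, chr2:57124004-57124253, minus strand: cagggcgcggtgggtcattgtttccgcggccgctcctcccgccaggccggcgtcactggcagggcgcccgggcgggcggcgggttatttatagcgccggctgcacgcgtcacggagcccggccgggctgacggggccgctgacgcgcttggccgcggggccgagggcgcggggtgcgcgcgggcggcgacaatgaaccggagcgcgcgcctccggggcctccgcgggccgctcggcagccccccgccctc
The CArG box of Egr2 lay from 72 to 63 bases before the start, and 4 of the 5 RefSeq windows of that gene held one. These are not separate boxes throughout, since overlapping windows held the same CCATATATGG at the same place. Only the window starting at 67537316 held another, CCTTTTTTGG. The EGR site of Nr4a1 lay from 60 to 52 bases before it, between CRE-like letters that began 71 and 42 bases before it. The Atf3 letters ended 3 bases before the start. Among 27025 genes with windows of this length, searched on both strands, 1.62% held a CArG box, 3.47% an EGR site (GCGTGGGCG or GCGGGGGCG), 2.00% TGCGTCA and 0.525% TTACGTCA. None of the marked letters overlapped each other. TGCGTCA and TTACGTCA were added to the search after the sequences had been read. The absence of these letters from other windows is therefore not a contrast between genes. Other variants of them were not searched, so a window without a match is not shown to lack such sites. TGACGTCA (1.77% of genes), TGACGCAA (0.507%), TGANTCA (7.82%), AAAGGTCA (1.55%) and TATAAA (8.94%, gene strand only) were searched as well and were in none of the windows of the 7 genes, and the windows of Nr4a2, Nr4a3, Ier3 and Ier5 held none of the motifs searched. A match is a run of letters and not a tested site.

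The libraries held 32427029 to 49534284 counts, with 20886 to 22583 genes at 1 count or more. KP tumour 5 was the deepest library. Levels are CPM, reads scaled to a common library total, after TMM scaling, which adjusts for depth and for a few very abundant genes. Slc2a1, the targeted gene, stood at 71.7 to 127 CPM in KP and 40.8 to 66.8 CPM in KPG1, which limma fitted as -1.01 on the log2 scale (SE 0.20, adjusted p = 0.0675), so transcripts of it were still counted in every KPG1 tumour. In bulk RNA, fewer cells of a type and less RNA per cell cannot be told apart.

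Comparing the genotypes, 8 of the 10 genes were lower in KPG1 tumours by about a log2 unit or more, while Nr4a2 and Nr4a3 were near 0. The genes were chosen by their levels in these tumours, with this contrast and their order along the title number known, so both are given as a description. The fitted log2 fold changes, KPG1 minus KP, were -2.18 (SE 1.06) for Egr3, -2.01 (SE 0.56) for Atf3, -1.93 (SE 0.67) for Egr2 and -1.37 (SE 0.29) for Nr4a1. They were -1.16 (SE 0.41) for Ier2, and -1.07 for Egr1 (SE 0.18), Ier3 (SE 0.15) and Ier5 (SE 0.30). Nr4a3 had -0.10 (SE 0.33) and Nr4a2 0.00 (SE 0.31). The fitted value was below 0 for 9 of 10, beside 47.3% of all genes tested, and the median was -1.11 beside 0.02 over all genes. In limma with Benjamini-Hochberg adjustment at 0.05, 1 of the 10 passed, Ier3, beside 0.111% of genes called lower and 0.0617% called higher. Leaving out 1 tumour, Ier3 passed only without KP tumour 2 or 5 or KPG1 tumour 1. All 5 KPG1 tumours lay below all 5 KP tumours for Egr1, Nr4a1 and Ier3, beside 1.76% of genes that separated this way and 1.05% that separated the other way. At an unadjusted p under 0.05, 7 of 10 were lower, beside 6.31% of genes. The largest differences had the widest errors, and Egr3, with the largest, had a 95% interval from -4.51 to 0.14.

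Tumours of the same group were far apart for several genes, in the order shown here.

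**Figure D1:**
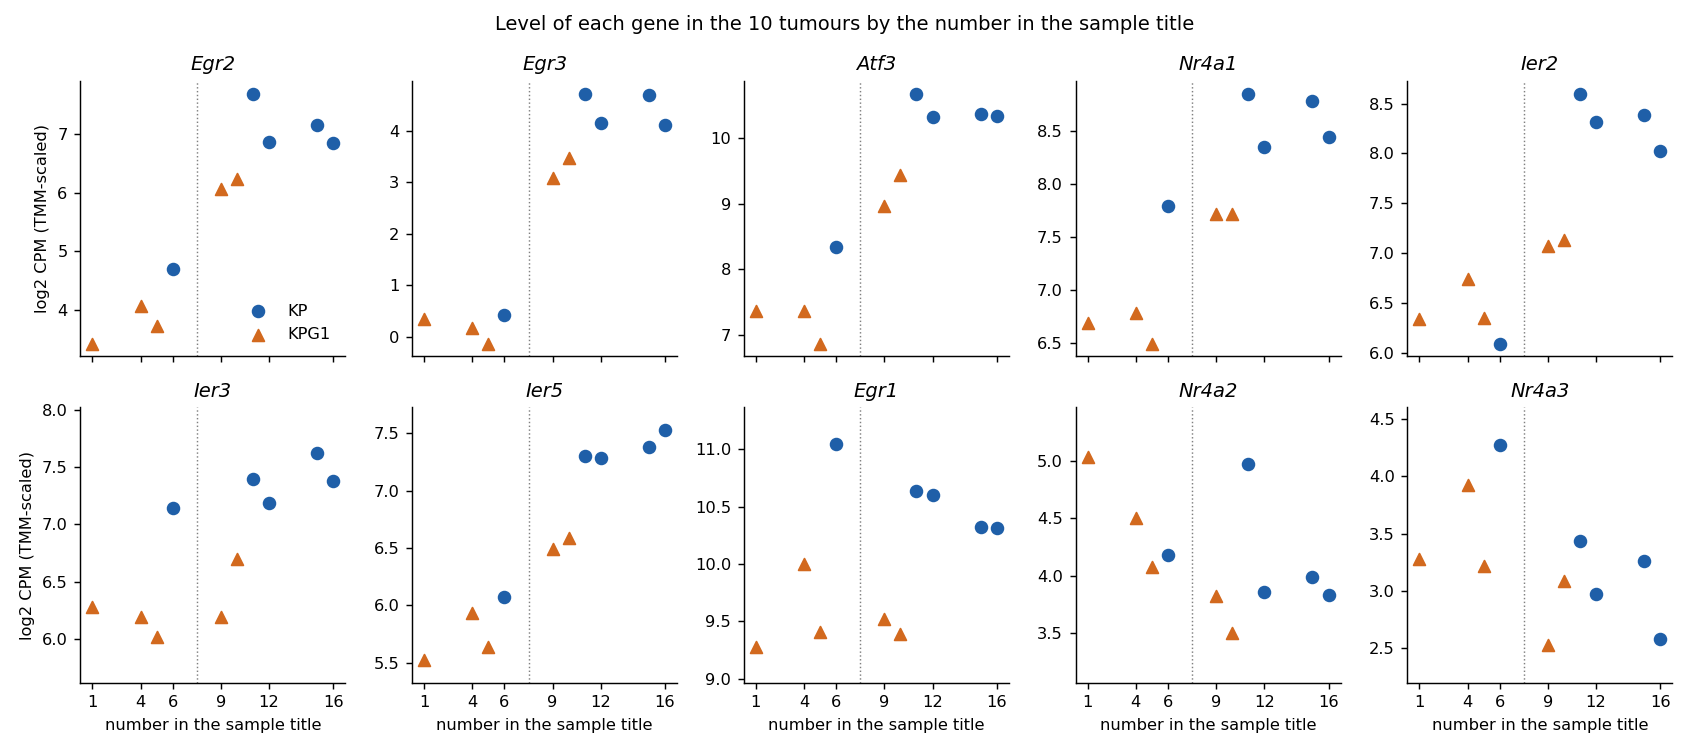
Level of each of the 10 genes in each tumour (log2 CPM, each panel with its own vertical range) against the number in the sample title, with KP tumours as circles, KPG1 tumours as triangles and a dotted line at the gap between 6 and 9. Egr2, Egr3, Atf3, Ier2 and Ier5 lie lower at 1 to 6 than at 9 to 16 in both groups, while for Egr1 the 5 KP tumours lie above the 5 KPG1 tumours at any number.

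Egr2 (ENSMUSG00000037868, mm10 chromosome 10, 67535475 to 67542188), whose CArG window is printed above, stood at 10.7, 16.6 and 13.2 CPM in the KPG1 tumours numbered 1, 4 and 5 and at 67.1 and 75.8 CPM in those numbered 9 and 10. In KP it was 25.9 CPM in the tumour numbered 6 and 207, 118, 143 and 115 CPM in those numbered 11, 12, 15 and 16. The 4 tumours with the lowest numbers thus lay below the other 6 whatever their genotype, and the KP tumour numbered 6 lay below both KPG1 tumours numbered 9 and 10. Within KPG1 the mean of tumours 9 and 10 was 5.30 times that of 1, 4 and 5, and within KP the mean of 11 to 16 was 5.63 times the tumour numbered 6.

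Egr3 (ENSMUSG00000033730, chromosome 14, 70077203 to 70082614), a relative of Egr2 known for roles in lymphocytes and muscle spindles, had the same order at a lower level. It was 1.22, 1.06 and 0.857 CPM in KPG1 tumours numbered 1, 4 and 5, and 8.45 and 11 CPM in 9 and 10. KP tumours had 1.29 CPM in the one numbered 6 and 26.5, 17.7, 25.9 and 17.2 CPM in the other 4. The step between the low and high numbers was 9.31 times within KPG1 and 17.0 times within KP.

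Egr1 (ENSMUSG00000038418, chromosome 18, 34859823 to 34864984), the most widely induced Egr factor, did not share that order. Its level was 624, 1020, 679, 735 and 673 CPM in the KPG1 tumours numbered 1, 4, 5, 9 and 10. In KP it was 2130 CPM in the tumour numbered 6, the highest of all 10, and 1600, 1550, 1280 and 1270 CPM in those numbered 11 to 16. Every KP tumour lay above every KPG1 tumour, and the means were 1570 ± 348 CPM in KP and 746 ± 159 CPM in KPG1 (SD, n = 5 each).

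Atf3 (ENSMUSG00000026628, chromosome 1, 191170296 to 191218039, minus strand), a bZIP factor induced by many stresses, followed Egr2. It was 166, 166 and 117 CPM in the KPG1 tumours numbered 1, 4 and 5, and 499 and 691 CPM in 9 and 10. KP tumours held 324 CPM in the one numbered 6 and 1630, 1280, 1310 and 1290 CPM in the other 4. The KP tumour numbered 6 was 2.77 times the KPG1 tumour numbered 5 and 0.650 times the one numbered 9, so it stood between its neighbours in number. Gm24748 lies within Atf3 on the opposite strand and shares no exon with it.

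Among the receptors, Nr4a1 (ENSMUSG00000023034, chromosome 15, 101254269 to 101274795), which is prominent in the response of many cell types to stimulation, had both patterns. Its level was 103, 110 and 89.8 CPM in KPG1 tumours numbered 1, 4 and 5 and 210 and 209 CPM in 9 and 10, and 222 CPM in the KP tumour numbered 6 and 461, 326, 440 and 347 CPM in the others. The groups did not overlap, and the low numbers were the lowest within each group.

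Nr4a2 (ENSMUSG00000026826, chromosome 2, 57106830 to 57124003, minus strand), known for its part in dopamine neurons, went against that order in KPG1. It was 32.6, 22.6 and 16.7 CPM in KPG1 tumours numbered 1, 4 and 5 and 14.1 and 11.3 CPM in 9 and 10. In KP it was 18.0 CPM in the tumour numbered 6 and 31.3, 14.5, 15.8 and 14.2 CPM in 11 to 16, so the groups overlapped almost wholly.
Nr4a3 (ENSMUSG00000028341, chromosome 4, 48045153 to 48086447), the third receptor of the family, was 9.64, 15.1, 9.26, 5.73 and 8.44 CPM in KPG1 tumours numbered 1, 4, 5, 9 and 10. Its KP levels were 19.2 CPM in the tumour numbered 6, the highest of the 10, and 10.8, 7.79, 9.52 and 5.93 CPM in 11 to 16.

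Of the Ier genes, Ier2 (ENSMUSG00000053560, chromosome 8, 84661331 to 84662852, minus strand), which encodes a nuclear regulator of transcription, was 80.9, 107 and 81.5 CPM in KPG1 tumours numbered 1, 4 and 5 and 134 and 140 CPM in 9 and 10. Ier2 in KP was 68.2 CPM in the tumour numbered 6, the lowest of all 10, and 388, 316, 334 and 260 CPM in the others. Ier5 (ENSMUSG00000056708, chromosome 1, 155096361 to 155099636, minus strand), linked to the heat-shock factor HSF1, was 45.7, 61.1 and 49.8 CPM and then 90.0 and 96.5 CPM in KPG1, and 67.0 CPM and then 158, 155, 166 and 184 CPM in KP, in the same order of tumours. For both genes the 4 tumours numbered 1 to 6 lay below the other 6.
Ier3 (ENSMUSG00000003541, chromosome 17, 35821684 to 35822923), a regulator of cell survival also called IEX-1, separated by genotype and not by number. It was 77.7, 72.7, 65.0, 72.8 and 104 CPM in KPG1 tumours numbered 1, 4, 5, 9 and 10. Ier3 in KP was 141 CPM in the tumour numbered 6 and 169, 146, 196 and 166 CPM in 11 to 16. The highest KPG1 tumour therefore stayed below the lowest KP tumour, with means of 78.4 ± 14.8 and 164 ± 21.7 CPM (SD, n = 5 each).

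Across the 10 genes, KP tumour 5 was the lowest of its group for 7 (Egr2, Egr3, Nr4a1, Ier2, Ier3, Ier5 and Atf3), beside 30.7% of all genes tested. In KPG1, tumours numbered 9 and 10 both lay above 1, 4 and 5 for 6 of 10 (the same genes except Ier3), beside 11.9% of genes. Both counts are descriptions, since the genes were proposed to be read against this number.

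With genotype and the 2 levels of the number (9 to 16 against 1 to 6) in 1 limma fit, the number's coefficient was largest for Egr3 at 3.52 on the log2 scale (SE 0.31), then Egr2 at 2.43 (SE 0.22) and Atf3 at 2.03 (SE 0.17). Ier2 had 1.27 (SE 0.29), Ier5 1.03 (SE 0.14), Nr4a1 0.96 (SE 0.15) and Ier3 0.27 (SE 0.15). Below 0 were Egr1 at -0.28 (SE 0.19), Nr4a2 at -0.50 (SE 0.31) and Nr4a3 at -0.93 (SE 0.26). By the limma call at an adjusted 0.05, 5 of the 10 were higher at 9 to 16 (Egr2, Egr3, Nr4a1, Ier5 and Atf3), beside 52 of all 16216 genes, or 0.321%, and 0 were lower, beside 0.0925%. At an unadjusted p under 0.05, 15% of all genes were called in either direction. The median over the 10 was 1.00, beside -0.02 over all genes. The 6 tumours numbered 9 to 16 lay wholly above the other 4 for 5 genes (Egr2, Egr3, Ier2, Ier5 and Atf3), beside 2.69% of all genes, and 2.88% of genes lay wholly below. Leaving out each tumour in turn, Egr2, Egr3 and Atf3 passed in all 10 fits, Ier5 in 7 and Nr4a1 in 4. This coefficient was read after the data had been seen, for genes chosen with their order along the number known. The calls and the fits that leave out a tumour therefore describe the pattern and do not test it. Without KP tumour 5, where the contrast rests on KPG1 tumours alone, these 3 were the members called, with 2.45 for Egr2 (SE 0.30), 3.24 for Egr3 (SE 0.38) and 2.02 for Atf3 (SE 0.22), beside 0.0971% of genes.

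In the same fit the genotype differences of the 3 most number-dependent genes shrank and tightened. They became -0.98 (SE 0.20) for Egr2, -1.0 (SE 0.25) for Egr3 and -1.19 (SE 0.17) for Atf3, and Nr4a1 was -0.98 (SE 0.14). Egr1 kept -1.18 (SE 0.19) and Ier3 -0.96 (SE 0.14), while Ier5 had -0.66 (SE 0.14), Ier2 -0.64 (SE 0.28), Nr4a3 -0.49 (SE 0.25) and Nr4a2 -0.16 (SE 0.31). Here 4 of 10 passed (Egr1, Nr4a1, Ier3 and Atf3), beside 0.142% of genes called lower and 0.0493% called higher. The difference could be read within each side of the gap as well. Among tumours numbered 1 to 6, the mean log2 CPM of 3 KPG1 tumours minus that of the only KP tumour was -1.49 for Egr1, -1.14 for Atf3 and for Nr4a1, -0.98 for Ier3 and -0.96 for Egr2. Among those numbered 9 to 16, 2 KPG1 against 4 KP tumours, it was -1.01, -1.22, -0.89, -0.96 and -0.99 for the same genes. On the low and the high side it was -0.30 and -1.14 for Egr3, -0.37 and -0.83 for Ier5, and -0.79 and -0.25 for Nr4a3. For Ier2, at 0.38 and -1.23, and Nr4a2, at 0.36 and -0.50, the sign differed. Differences between the 2 sides were not tested, and the low side rests on 1 KP tumour.

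**Figure D2:**
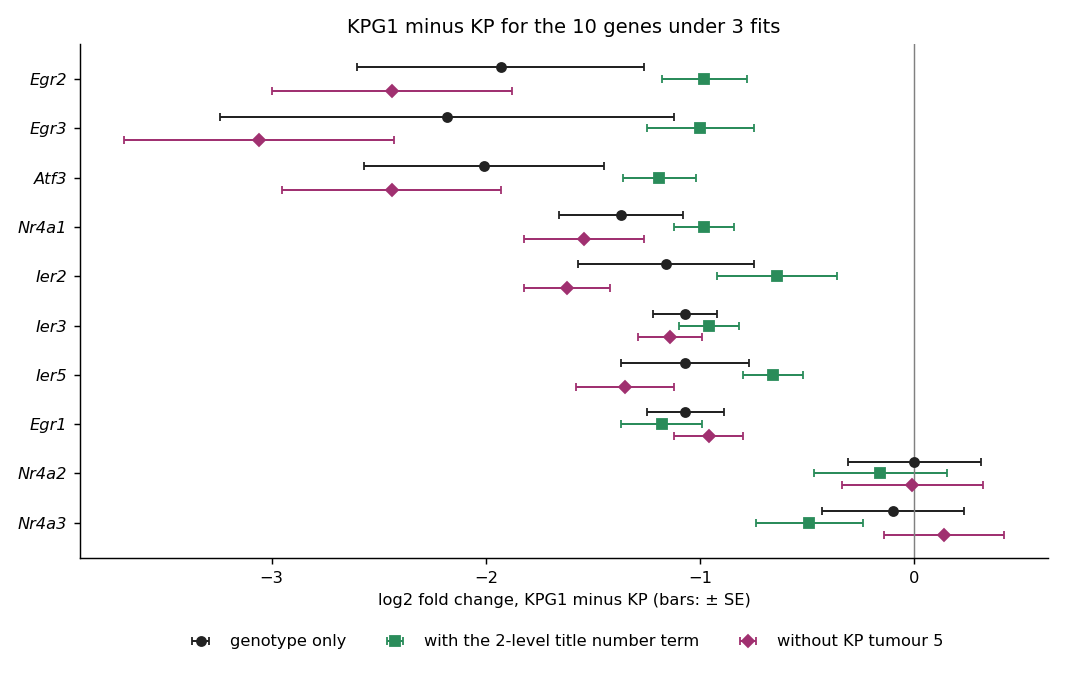
KPG1 minus KP log2 fold change of each of the 10 genes in 3 fits (genotype only, with the 2-level title number term, and without KP tumour 5), with bars of 1 SE. Adding the number moves Egr2, Egr3 and Atf3 to between -1.19 and -0.98 with shorter bars, while Egr1 and Ier3 change little.

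The number was also entered as a numeric term, as a slope over all 10 values. The slope was above 0 for the 7 genes named for KP tumour 5, beside 48.6% of all genes, and below 0 for Egr1, Nr4a2 and Nr4a3, and ranged from -0.116 log2 units per number for Nr4a3 to 0.343 for Egr3. In limma 0 of 16216 genes passed for the slope. edgeR also called 0, and DESeq2 called 135, with Egr2, Egr3, Ier5 and Atf3 among them. At an unadjusted limma p under 0.05 were 8 of the 10, all but Egr1 and Ier3, beside 11.9% of all genes. Nr4a2 and Nr4a3 were among the 8 with slopes below 0. The count is a description, since the genes were chosen with their order along the number known. With this term the genotype difference of Egr2 was -0.25 (SE 0.53), of Egr3 0.05 (SE 0.79), of Ier2 -0.24 (SE 0.41) and of Ier5 -0.26 (SE 0.19), while Egr1 had -1.31 (SE 0.23), Ier3 -0.86 (SE 0.18) and Nr4a1 -0.72 (SE 0.27). Atf3 had -0.63 (SE 0.46), Nr4a3 -0.85 (SE 0.32) and Nr4a2 -0.52 (SE 0.33). No member passed, beside 0.0247% of genes called lower and 0.0247% called higher. Taking the number as a slope or as a step therefore moved the genotype values of Egr1 and Ier3 by less than their errors and those of the other 8 genes by more than 1 SE of the fit with the step. Egr1, Nr4a1, Ier3 and Atf3 were called with the step and not with the slope. Neither form of the number was tested against the other.

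Without KP tumour 5 and with genotype as the only term, the differences were -3.06 (SE 0.63) for Egr3, -2.44 for Egr2 (SE 0.56) and Atf3 (SE 0.51), -1.62 (SE 0.20) for Ier2 and -1.54 (SE 0.28) for Nr4a1. Then 7 of 10 passed, all but Egr2, Nr4a2 and Nr4a3, beside 1.35% of 16476 genes called lower and 0.431% called higher, and 8 did not overlap, beside 4.24% of genes.

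The ratio between relatives, taken per length (FPKM on GENCODE M21 exon lengths) within each tumour, needs no scaling between libraries and had the same step. Egr1 was 38.9 to 62.2 times Egr2 in the 4 tumours numbered 1 to 6 and 5.85 to 9.97 times Egr2 in the 6 numbered 9 to 16. Egr3 was 0.0616% to 0.198% of Egr1 and then 1.16% to 2.06%. Both genotypes lay on each side, and Egr2 and Egr3 were lowest relative to Egr1 in the KP tumour numbered 6. Atf3 stood at 0.318 to 0.553 times Egr1 at the low numbers and at 1.42 to 2.14 times Egr1 at the high ones, so which of them was the more abundant transcript changed at the gap. Nr4a1 was 12.4 to 19.7 times Nr4a3, and then 42.4 to 100 times.

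**Figure D3:**
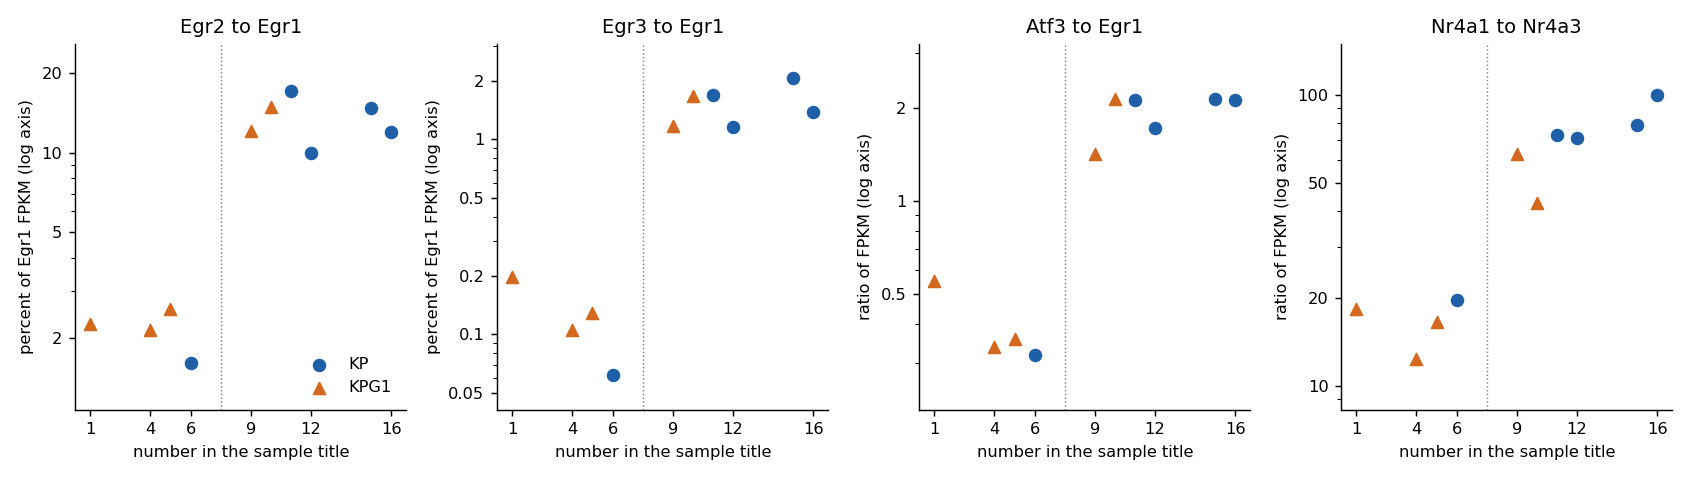
Ratios of FPKM within each tumour (log axes) against the number in the sample title, with KP as circles, KPG1 as triangles and a dotted line at the gap between 6 and 9. The 4 tumours numbered 1 to 6 lie below the 6 numbered 9 to 16 in every panel, whatever their genotype.

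By mean FPKM, Atf3 came first in KP at 542 ± 229 (SD, n = 5 here and below), then Egr1 at 349 ± 77.7 and Ier2 at 180 ± 81.1. Ier3 followed at 145 ± 19.2, Nr4a1 at 102 ± 27.4, Ier5 at 44.6 ± 13.9 and Egr2 at 35.9 ± 19.2. The least abundant were Nr4a2 at 4.62 ± 1.77, Egr3 at 4.02 ± 2.31 and Nr4a3 at 1.78 ± 0.855. Egr1 led in KPG1 at 166 ± 35.4, then Atf3 at 152 ± 118, Ier2 at 71.4 ± 18.5, Ier3 at 69.3 ± 13.1 and Nr4a1 at 41.2 ± 17.1. Ier5 was at 20.9 ± 7.12 there, Egr2 at 10.8 ± 9.41, Nr4a2 at 4.79 ± 2.08, Nr4a3 at 1.61 ± 0.572 and Egr3 at 1.03 ± 1.1. Neighbours in these orders overlapped in range, except Egr1 over Ier2 and Nr4a1 over Ier5 in KP and Nr4a2 over Nr4a3 in KPG1. Atf3 and Egr1 in KPG1 had close means, and Egr1 was the higher in 3 of 5 tumours.

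Deviations from the group means were compared between genes over the 10 tumours, as a description. The 21 pairs among the 7 genes with a slope above 0 had Pearson's r of 0.52 to 0.99, and the 3 pairs among Egr1, Nr4a2 and Nr4a3 had 0.19 to 0.76. The 21 pairs across these sets had -0.75 to -0.12. The sets were split by the sign of a slope fitted to the same tumours within groups. Higher values within sets than across them are thus in part built in by the split. All pairs share the same libraries and their scaling. Egr1 (r = -0.40), Nr4a2 (-0.29) and Nr4a3 (-0.52) ran against the mean of the other members. The mean of the 10 therefore follows the 7 genes and not these 3. Of 12867 other genes whose mean log2 CPM reached 1, those most like the mean of the 10 were Rhob, a small GTPase gene that is itself immediate-early (r = 0.97), Lipg (0.95), Sh3tc2 (0.95), Rgs12 (0.94), Serping1 (0.93), Stard9 (0.93), Myzap (0.93), 1700086O06Rik (0.92), Gbp3 (0.92) and Btg2 (0.92), an antiproliferative immediate-early gene.

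Other immediate-early genes were described from a list of 46, all of which were tested. The list was chosen with earlier results of these data known, so its counts are a description. All 46 had a fitted log2 fold change below 0, with a median of -0.85, and 3 passed as lower in KPG1: Fosb, an AP-1 subunit (-1.82, SE 0.30, limma adjusted p = 0.0464), Maff, a small Maf factor (-1.24, SE 0.16, adjusted p = 0.0233), and Klf4, a Krüppel-like factor (-1.39, SE 0.22, adjusted p = 0.0378). Over all genes tested, 47.3% had a value below 0 and 0.111% were called lower. The groups did not overlap for 9 of the 46, beside 1.76% of all genes. Leaving out 1 tumour, 0 of the 46 passed without KP tumour 1, 3 or 4 or KPG1 tumour 2, 3 or 4. The count was 1 without KP tumour 2 or KPG1 tumour 1 or 5. It was 20 without KP tumour 5, where 1.35% of all genes were called lower and 0.431% higher. Arc, a regulator of synaptic plasticity, had the largest difference of the list at -3.01 (SE 1.2, adjusted p = 0.366) and ranged from 7.85 to 335 CPM within KP. Their summed level was 10900 to 19800 CPM in KP, with KP tumour 5 the lowest, and 5700 to 9830 CPM in KPG1.

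Along the 2 levels of the title number, 9 of these 46 passed as higher at 9 to 16 and 0 as lower, beside the 0.321% given above, with a list median of 0.63. The 9, named after their values were seen, were Egr4, Klf2, Zfp36, Btg2, Arc, Cyr61, Dusp5, Nfkbiz and Trib1. Arc differed by 4.24 (SE 0.39, limma adjusted p = 0.000878), Dusp5, a phosphatase of ERK, by 2.69 (SE 0.23, adjusted p = 0.000577), Klf2, a Krüppel-like factor, by 2.59 (SE 0.23, adjusted p = 0.000755), and Cyr61, a secreted matrix protein, by 2.03 (SE 0.15, adjusted p = 0.000402). Leaving out 1 tumour, 4 to 10 of the 46 passed, with 4 without KP tumour 5 (Klf2, Arc, Cyr61 and Dusp5) and 6 without KPG1 tumour 1. Egr4, the fourth Egr gene, went from 0 to 1140 counts over the 10 tumours. Fos (0.60, SE 0.20, adjusted p = 0.214), Jun (0.17, SE 0.22, adjusted p = 0.745) and Maff (0.44, SE 0.13, adjusted p = 0.168) did not pass. Differences between these genes were not tested. In the same fit Maff (-1.07, SE 0.13, adjusted p = 0.0129), Cyr61 (-1.1, SE 0.15, adjusted p = 0.0278), Dusp5 (-1.39, SE 0.22, adjusted p = 0.0440), Fosb (-1.49, SE 0.24, adjusted p = 0.0440) and Dusp1 (-1.03, SE 0.17, adjusted p = 0.0481), a phosphatase of MAP kinases, passed as lower in KPG1. Klf4 did not pass there (-1.29, SE 0.24, adjusted p = 0.0760).

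**Figure D4:**
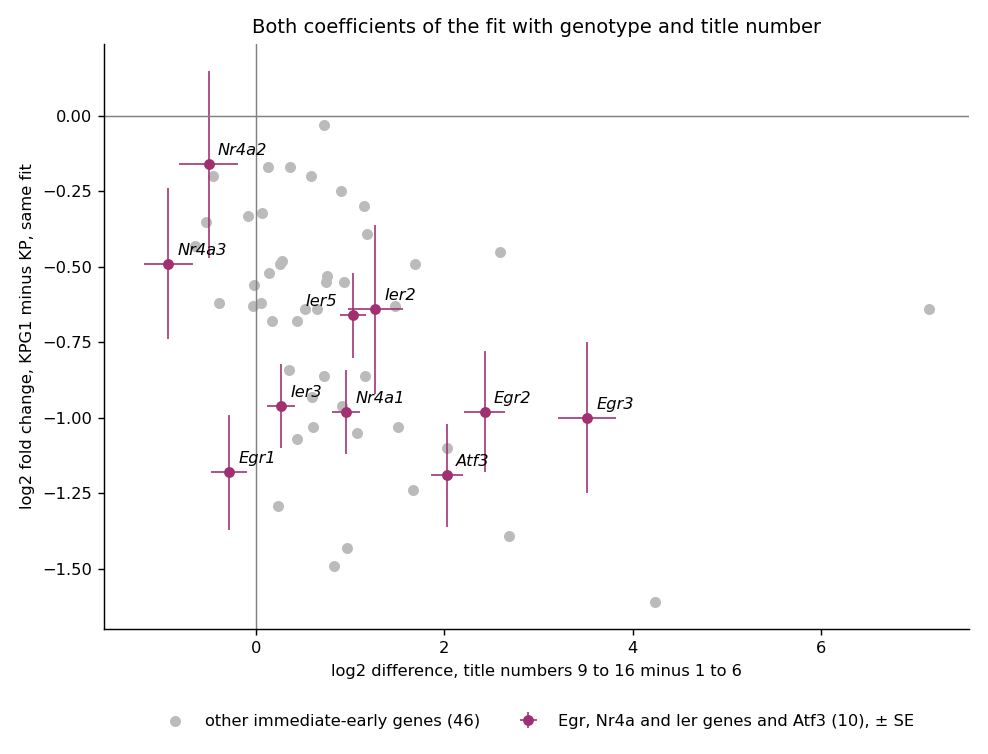
Log2 difference between title numbers 9 to 16 and 1 to 6 (horizontal) against the KPG1 minus KP log2 fold change (vertical) in the same limma fit, for the 10 genes with bars of 1 SE and the 46 other immediate-early genes in grey. All 56 points lie below 0 vertically, and Egr3, Egr2 and Atf3 lie far to the right of Egr1 at a like height; the grey point at the far right is Egr4, whose counts reached 0.

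Regulators known to act on these genes were read next. Of 23 signal-regulated activators, 10 were higher and 13 lower in KPG1, 0 passed (4 at an unadjusted p under 0.05), and the median was -0.03. Srf, the factor that binds the CArG box, had -1.0 (SE 0.44, limma adjusted p = 0.419), Creb1 0.50 (SE 0.15, adjusted p = 0.236), Rps6ka3 0.39 (SE 0.16, adjusted p = 0.378) and Rps6ka5 -0.40 (SE 0.31, adjusted p = 0.644). Along the number 1 of the 23 passed, Srf, as higher at 9 to 16, beside 0.321% of all genes. Of 6 corepressors and repressors 0 passed, with a median of -0.10. Among these were Etv3 at -0.39 (SE 0.10, adjusted p = 0.185), Nab1, an Egr corepressor, at 0.12 (SE 0.16, adjusted p = 0.814), Cic at -0.15 (SE 0.16, adjusted p = 0.750) and Sik2 at -0.14 (SE 0.23, adjusted p = 0.862).

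Of 14 cAMP and CREB targets, a list that holds the 3 Nr4a genes, 10 were lower and 2 passed, Fosb and Areg, the growth factor amphiregulin (-0.84, SE 0.13, limma adjusted p = 0.0314), with a median of -0.50. The 2 that passed stood beside 0.111% of all genes called lower. Dusp1 had -1.27 (SE 0.22, adjusted p = 0.0513). The summed level of the 11 that are not among the 10 genes was 2490 to 4270 CPM in KP and 917 to 1660 CPM in KPG1, which did not overlap. Of these, Fosb, Dusp1, Sik1, Per1, Rgs2 and Gem are also among the 46 other immediate-early genes. Fosb held 1090 to 2610 CPM in KP and 258 to 699 CPM in KPG1, and Dusp1 626 to 914 CPM and 216 to 482 CPM. Taken alone, the groups did not overlap for 4 of the list, Nr4a1, Areg, Fosb and Dusp1, beside 1.76% of all genes. Leaving out 1 tumour, 4 of the list passed without KP tumour 5, beside 1.35% of all genes called lower and 0.431% higher. The count was 1 without KPG1 tumour 1, and 0 without any of the other 8. Of 12 ATF4 and stress-response genes, 10 were lower and 0 passed (2 at an unadjusted p under 0.05), with a median of -0.25, among them Ppp1r15a, a phosphatase subunit, at -1.16 (SE 0.24, adjusted p = 0.0895), Ddit3 at -0.61 (SE 0.21, adjusted p = 0.302), Cebpb at -0.38 (SE 0.18, adjusted p = 0.455) and Sesn2 at 0.35 (SE 0.22, adjusted p = 0.579). Their summed level was 943 to 1100 CPM in KP and 663 to 808 CPM in KPG1, which did not overlap. Ppp1r15a, also among the 46 other immediate-early genes, held 195 to 444 CPM in KP and 103 to 208 CPM in KPG1. Taken alone, the groups overlapped for every gene of the 12. Of 14 heat-shock genes, 10 were lower and 0 passed (2 at an unadjusted p under 0.05), with a median of -0.12. Dnajb1, an HSP40 co-chaperone, had -1.02 (SE 0.41, adjusted p = 0.371), Hspb1 -0.96 (SE 0.35, adjusted p = 0.330), Hspa1a -0.51 (SE 0.25, adjusted p = 0.475) and Hsp90aa1 -0.27 (SE 0.26, adjusted p = 0.736). The summed heat-shock level was 6100 to 6620 CPM in the tumours numbered 1 to 6 and 6880 to 8360 CPM in those numbered 9 to 16, which did not overlap. Hsp90ab1 alone held 2580 to 3450 CPM in KP and 2580 to 3190 CPM in KPG1. Along the number 1 of the 14 passed, Dnajb1, as higher at 9 to 16, beside 0.321% of all genes. The list median was 0.20, and 3 of the 14 lay wholly higher at 9 to 16, beside 2.69% of all genes. The part of the heat-shock level in the number pattern of the 10 genes was not tested.

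Markers of other cell types were read beside these results. Epithelial and alveolar type 2 markers, the cells in which tumours were started, summed to 22700 to 61200 CPM in KP and 46200 to 84100 CPM in KPG1, with 0 of 12 called and a median of 0.23. Among them were Sftpc (1.22, SE 0.40, limma adjusted p = 0.272), Lamp3 (1.25, SE 0.59, adjusted p = 0.441), Abca3 (0.97, SE 0.36, adjusted p = 0.332) and Krt18 (-0.87, SE 0.15, adjusted p = 0.0501). Leukocyte markers summed to 107 to 219 CPM in KP and 117 to 196 CPM in KPG1, with 0 of 10 called (3 at an unadjusted p under 0.05) and a median of -0.27. Much of that sum was Cd14, at 42 to 131 CPM in KP and 79.3 to 146 CPM in KPG1 (-0.01, SE 0.31). The groups did not overlap for 3 of the 10, Itgam, S100a8 and S100a9, which were lower in KPG1, beside 1.76% of all genes. S100a9 (-1.98, SE 0.46, adjusted p = 0.142), S100a8 (-1.84, SE 0.50, adjusted p = 0.205), Itgam (-1.04, SE 0.33, adjusted p = 0.263) and Csf1r (-0.49, SE 0.29, adjusted p = 0.547) had the largest differences. Ptprc, the gene of CD45, held 211 to 484 counts per library and the T-cell marker Cd3e 0 to 8, so leukocyte transcripts were few but not at 0.

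Endothelial markers summed to 311 to 1020 CPM in KP, with KP tumour 5 the lowest of the 10, and to 462 to 1460 CPM in KPG1. All 8 were fitted higher in KPG1, with a median of 0.31 and 0 called (0 also at an unadjusted p under 0.05). Kdr (0.56, SE 0.32, limma adjusted p = 0.526), Cdh5 (0.36, SE 0.30, adjusted p = 0.687), Cldn5 (0.34, SE 0.37, adjusted p = 0.771) and Tek (0.32, SE 0.36, adjusted p = 0.777) were the largest. Along the number their sum was 311 to 746 CPM at 1 to 6 and 604 to 1460 CPM at 9 to 16, with a median difference of 0.87 and 0 called. Fibroblast markers summed to 156 to 329 CPM in KP and 218 to 397 CPM in KPG1, and to 156 to 304 CPM and 163 to 397 CPM at the low and high numbers. All 8 were fitted higher in KPG1, with a median of 0.49, 0 called and 2 at an unadjusted p under 0.05. Dcn (0.75, SE 0.32, adjusted p = 0.389), Lum (0.57, SE 0.47, adjusted p = 0.672), Col1a2 (0.54, SE 0.28, adjusted p = 0.493) and Postn (0.54, SE 0.23, adjusted p = 0.391) were the largest. Depth overlapped between the numbers 1 to 6 (35057912 to 49534284 counts) and 9 to 16 (32427029 to 46367400 counts). The part of these cell types in the pattern of the 10 genes was not tested.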

How the data were processed

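RNA from 10 tumour fractions was sequenced from one end after poly(A) selection with a stranded kit. From the labels and the study's methods, the authors trimmed reads with cutadapt (version 1.4.2 in the labels, a different version in the methods), aligned them to mm10 with HISAT2 and counted them per gene with featureCounts 1.4.4; the strand setting and annotation release are not given in the sources used here. The deposited counts are raw whole numbers for each of 39017 Ensembl genes; the joint table and the single files were equal at all 390170 values. A table of log2 values that the authors deposited was not used. Low genes were removed with the default filterByExpr in edgeR 4.0.16, in place of the TPM filter of the study, and voom and limma 3.58.1 (R 4.3.3) were fitted with TMM factors and genotype as the only term, with Benjamini-Hochberg adjustment over 16216 genes at 0.05. Fits with the title number as a slope or in 2 levels followed; reading the coefficient of the 2 levels itself was added after the data had been seen. Levels are CPM, log2 CPM with a prior count of 2, and FPKM. The genotype fit and the slope fit were tested on simulated data with known changes. The genotype fit called 38 of 99 genes changed by 1 log2 unit and 86 of 98 changed by 2. The slope fit called 23 of 99 and 74 of 99 at changes of 1 and 2 log2 units over 8 title numbers. False calls were 5 of 129 and 5 of 102. A gene that did not pass is therefore not shown to be unchanged.

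The 10 genes and all gene lists were chosen with earlier results of these data known. Named genes are the 10 members, of each list those past the threshold and otherwise up to 4 with the largest difference, Slc2a1, and the 10 genes most like the members' mean. Others are said to be named after their values were seen; Fos, Jun and the genes called between the title numbers are among them. edgeR and DESeq2 1.42.0, other scalings and filters, library weights and leaving out each library were alternatives. Copies made by PCR were not separated, so depth covers counting error only. Reads from a gene and its antisense partner cannot be told apart without the strand setting. Same-numbered replicates were not treated as pairs in the main fit. The correlations of their deviations were -0.12, 0.08, 0.06, 0.06 and -0.16, which cannot show whether the tumours were paired. Plots were drawn with matplotlib 3.10.9.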

Additional observations from a re-analysis of the deposited data

Results flagged for a closer look

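In 5 of the 10 genes, KP tumour 5, numbered 6, lay apart from the other 4 KP tumours: its gap to the nearest of them was more than 0.71 of the whole KP range, Dixon's critical value for 5 samples. Atf3 had a log2 CPM of 8.34 there, against 10.32 to 10.67 in the others. Egr2 had 4.70 against 6.85 to 7.70, and Egr3 0.42 against 4.11 to 4.73. Ier2 had 6.09 against 8.02 to 8.60, and Ier5 6.07 against 7.28 to 7.53. No KPG1 tumour was singled out in any gene, and no tumour in the summed level of a gene list. Chance singles out about 1 in 20 groups, or 2 of the 40 groups searched. These 5 are values of 1 library in genes that vary together, so they are not 5 separate events.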

How the results depend on the processing

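The fitted difference between genotypes stayed below 0 for Egr1, Egr2, Nr4a1, Ier2, Ier3, Ier5 and Atf3 under each of the 20 alternatives, and the median of all genes stayed within 0.034 of 0. The number of calls depended on the setting. Against 10 genes higher, 18 lower and 1 of the 10 members lower, DESeq2 called 125, 423 and 6, weights per library 51, 177 and 7, an adjusted p under 0.1 gave 23, 79 and 3, and a mean CPM of at least 20 gave 5, 31 and 2. edgeR called 29 genes lower and no filter 31; no filter, DESeq2 size factors and library totals each called 2 members, and the 2-level number term called 4. The title number as a slope left 4 higher, 4 lower and 0 members. Leaving out 1 tumour gave 3 to 71 genes higher, 1 to 223 lower and 0 to 7 members, the upper ends without KP tumour 5; Ier3 was called in 3 of these 10 fits. With a replicate block, 4 genes were higher, 1 was lower and 0 members passed. Of 5 same-numbered pairs, 1 correlated best with its own number. That count cannot show whether the labels' replicate numbers pair the tumours.

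Of the 46 other immediate-early genes, 3 were called lower in KPG1, against 23 in DESeq2, 25 with library weights, and 0 with a replicate block or the slope. For the 14 cAMP and CREB targets the count was 2, against 5 in DESeq2 and with library weights, 1 with library totals, and 0 with a replicate block or the slope. For the slope, DESeq2 called 135 genes and 4 members, against 0 and 0. Between title numbers 9 to 16 and 1 to 6, against 67 genes, DESeq2 called 621, no filter 112, a mean CPM of at least 20 called 27 and library weights 36. Leaving out 1 tumour gave 16 to 90 genes and 3 to 5 members. Egr2 and Atf3 passed in all 18 settings, and Egr3 in 17, having been left out by the filter in the other. These passes are a description, since this coefficient was read after the data had been seen. The causes of these changes were not tested.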
